A study of Mus musculus with 6 samples.

Results

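The core circadian clock genes are described here in neutrophils sorted from the uterus of PRPL mice, a mouse tumour model: Arntl, Clock, Per1, Per2, Per3, Cry1, Cry2, Nr1d1, Nr1d2 and Dbp. They were chosen by symbol, and 10 of 10 were found among the 43432 gene IDs of the count files. RNA-seq was done on 6 libraries, 3 from mice housed in normoxia (ambient oxygen) and 3 from mice housed in hyperoxia (a chamber set at 60% oxygen from postnatal day 18 to postnatal day 28). All mice carried the PRPL genotype on strain C57BL/6 and were 4 weeks old when killed. In this genotype Cre recombinase is made from the progesterone receptor gene, so a floxed allele is deleted where that gene is active, and both groups carried the deletion. The sorted cells were CD45+ Ly6Ghi CD11b+ cells of the digested uterus. No group of another genotype and no time of day of collection is given in the sources used here.

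The circadian clock is a feedback loop of transcription and translation. ARNTL (also called BMAL1) pairs with CLOCK and activates genes that carry E-box motifs, among them the Period and Cryptochrome genes, whose proteins then block the pair. In a second loop the same pair drives NR1D1 and NR1D2 (REV-ERB proteins), which repress Arntl through elements that the activating ROR receptors also bind, and DBP carries the rhythm to genes with D-box motifs. Clock genes are known to be active in neutrophils, where Arntl has been linked to the daily ageing and migration of the cells.

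Stretches of the promoters of 5 members are shown because they hold letters of the motifs through which the loop is known to act. Of the 10 members, 9 matched a promoter table from RefSeq (build GRCm38.p6), with 13 promoters that run from 250 bases before to 50 bases after a gene start. Per2 had no promoter there and was not searched. Both strands were searched for the E-box CACGTG, the E-box variant CACGTT, the D-box as TTATGTAA or TTACGTAA, and the core of the ROR element as TAGGTCA or TGGGTCA; these letters do not overlap one another in the stretches shown, where capitals mark a match. Positions count from the start in the RefSeq table, which for Per1 is at 69098949, 3732 bases inside the longer gene model whose coordinates are given with its values, and for the 4 others within 46 bases of the start of the model. The E-box of Per1 lies at position -166 in a stretch at chr11:69098749-69098838 (plus strand). Cry1 holds an E-box at position -60 and the variant, on the reverse strand, at position -79 (chr10:85185075-85185154, minus strand). Nr1d1 holds the variant, again on the reverse strand, at position -28 (chr11:98775378-98775437, minus strand), Per3 holds a pair of D-boxes at positions -205 and -158 (chr4:151044796-151044885, minus strand), and Arntl holds the ROR element at position 31 after the start (chr7:113207529-113207558, plus strand).
Per1: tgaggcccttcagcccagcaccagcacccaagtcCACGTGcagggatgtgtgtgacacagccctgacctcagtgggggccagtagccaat
Cry1: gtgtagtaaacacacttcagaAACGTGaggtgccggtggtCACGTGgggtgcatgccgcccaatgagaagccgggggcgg
Nr1d1: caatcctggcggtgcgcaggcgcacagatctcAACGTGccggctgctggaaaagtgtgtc
Per3: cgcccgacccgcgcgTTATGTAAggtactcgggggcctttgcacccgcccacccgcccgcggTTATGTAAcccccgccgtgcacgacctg
Arntl: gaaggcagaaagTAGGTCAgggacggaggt
Among all 32851 promoters of the table, 7.15% hold CACGTG, 4.68% CACGTT, 0.938% TTATGTAA, 0.119% TTACGTAA, 2.61% TAGGTCA and 3.98% TGGGTCA. Per1 and Cry1 are the 2 members with CACGTG in the window, and CACGTT is in those of 3 members, Cry1, Nr1d1 and Cry2. A match describes the letters of the window and not a bound site.

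Per1 and Cry1 took most of the counts of the 10 core clock genes. Of the 26290 counts that fell on the 10 genes over all libraries, Per1 took 66.1% and Cry1 22.1%, and the 8 others together 11.7%. On a per-length scale (RPKM, counts scaled by library size and by kilobases of annotated exon), Per1 averaged 11.4 ± 3.01 and Cry1 6.30 ± 0.782 (SD, n = 6 libraries), which placed them above 83.5% and 76.5% of the genes tested. The range of Per1, 8.34 to 16.4 RPKM, lay above the range of Cry1, 5.33 to 7.67 RPKM. Cry1 in turn stood 9.97 times above the next member, Dbp, with no overlap of their ranges.

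All other members were low. Dbp averaged 0.631 ± 0.213 RPKM, Per2 0.550 ± 0.183, Nr1d1 0.333 ± 0.227 and Cry2 0.196 ± 0.0562 (SD, n = 6). Below them came Arntl at 0.126 ± 0.0572, Clock at 0.103 ± 0.0246, Per3 at 0.0988 ± 0.0343 and Nr1d2 at 0.0379 ± 0.0243 RPKM (SD, n = 6). From Dbp downwards each member's range overlapped that of its neighbour, so neighbours in this order were not separated. The lowest libraries of Dbp and Per2 (0.356 and 0.390 RPKM) still lay above the highest libraries of Cry2, Arntl, Clock, Per3 and Nr1d2, of which the highest was 0.250 RPKM. Within families the paralogs were far apart: the mean level of Per1 was 20.8 times that of Per2 and 116 times that of Per3, and the mean level of Cry1 was 32.1 times that of Cry2. The activators Arntl and Clock stood above only 12.2% and 9.52% of the genes tested. In bulk RNA, a low level in all cells and a higher level in few cells cannot be told apart, nor can fewer cells of a type and less RNA per cell.

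**Figure D1:**
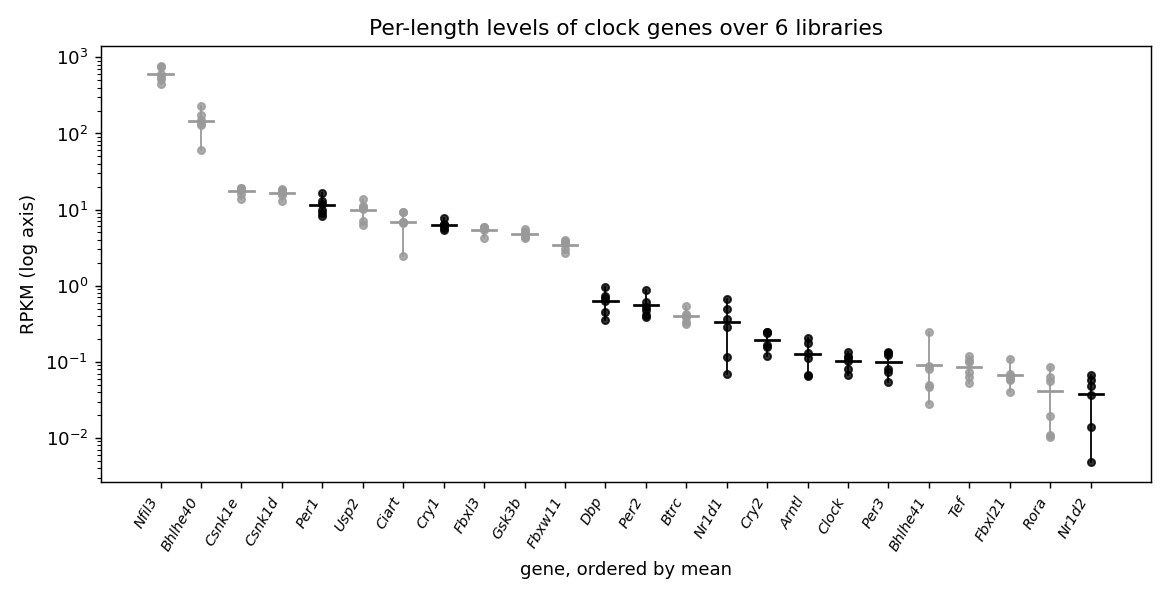
RPKM (log axis) of the 10 core clock genes (black) and of other clock genes (grey), ordered by mean, with 1 point per library, a vertical line for the range and a bar for the mean of 6 libraries; genes below the filter on low counts are not drawn. Per1 and Cry1 stand well above the other core genes, of which Dbp is the next at 0.631, while Nfil3 and Bhlhe40 stand above all of them.

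The comparison of the groups asked whether clock genes differed in neutrophils of mice given extra oxygen. With edgeR's quasi-likelihood test over 12908 genes, 0 of the 10 members passed an adjusted p of 0.05, where the background over all genes tested was 0% higher and 0% lower. DESeq2 called 0 members as well, against a background of 3.57% of genes higher and 0.403% lower; it gave no adjusted p for Nr1d2. At an unadjusted p under 0.05, edgeR counted 1 member higher, Arntl, and 0 lower, where all genes gave 9.10% higher and 3.91% lower. The groups did not overlap for 1 member higher (Arntl) and 1 lower (Cry1), against 9.56% and 10.3% of all genes, so these shares are close to the background. The median log2 difference of the 10 members was 0.18, with 5 above and 5 below 0, and the median of all genes tested was 0.04. Whether each library came from a different animal is not stated in the labels, and the spread on which the p-values rest may therefore be partly technical.

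**Figure D2:**
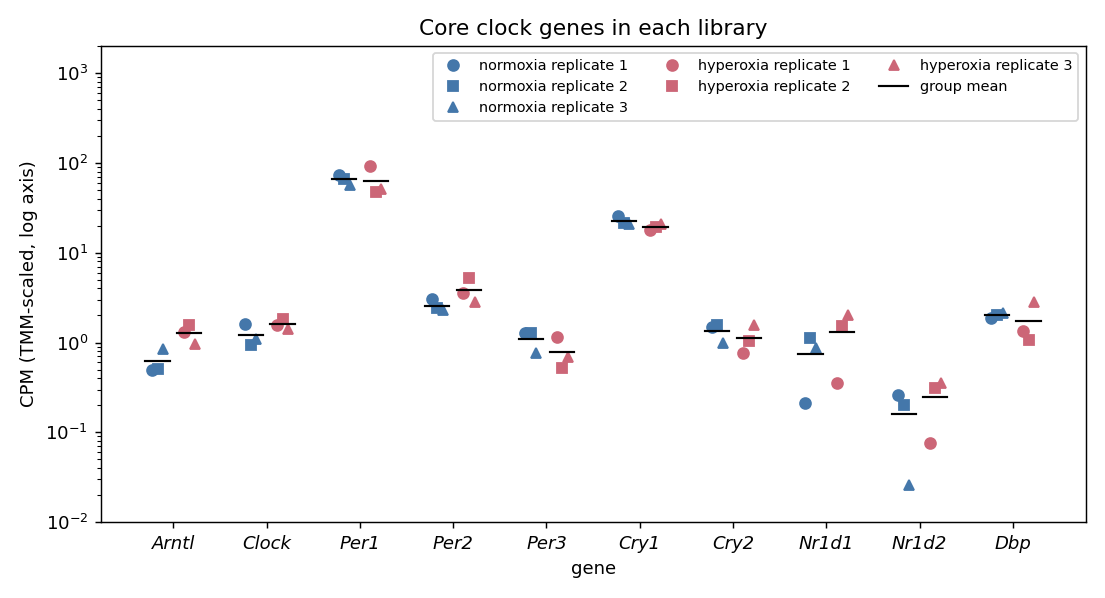
CPM (counts per library size after TMM scaling, log axis) of each core clock gene in the 3 normoxia libraries (blue) and 3 hyperoxia libraries (red), with replicate 1 as circles, 2 as squares, 3 as triangles, and bars for group means. Arntl is the only gene whose hyperoxia libraries all lie above the normoxia libraries, and Nr1d1 and Nr1d2 show the widest spread within both groups.

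Of the activators, Arntl (ENSMUSG00000055116, chr7:113207465-113314126, plus strand) had 21, 23 and 33 counts in the normoxia libraries and 52, 100 and 46 in the hyperoxia libraries. On the CPM scale, which divides by library size after TMM scaling, these were 0.491, 0.510 and 0.848 against 1.32, 1.57 and 0.968. Every hyperoxia library lay above every normoxia library, under TMM scaling and under the 3 other scalings tried, although the closest pair, normoxia replicate 3 and hyperoxia replicate 3, had counting intervals that overlap (0.584 to 1.19 and 0.709 to 1.29 CPM, 95% exact Poisson, which cover counting error only). The log2 difference, hyperoxia minus normoxia, was 1.06 ± 0.42 (SE; 95% interval 0.10 to 2.02), with an unadjusted p of 0.0342 and an adjusted p of 0.348 in edgeR. The unadjusted p was 0.0944 without normoxia replicate 1, 0.118 without normoxia replicate 2, 0.0551 without hyperoxia replicate 1 and 0.077 without hyperoxia replicate 2, but 0.0226 without normoxia replicate 3 and 0.0243 without hyperoxia replicate 3.

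Like Arntl, some marker sums of other cell types were higher in every hyperoxia library than in any normoxia library. The summed level of 12 macrophage and monocyte markers, all with counts in every library, ran from 927 to 1079 CPM in normoxia and from 1224 to 1538 CPM in hyperoxia. The 7 dendritic cell and MHC class II markers ran from 455 to 492 against 690 to 2075 CPM, also with counts in every library. The 8 endothelial markers ran from 8.87 to 14.2 against 27.1 to 63.3 CPM, with Cdh5 and Tek at 0 in at least 1 library, and the 5 smooth muscle markers from 13.8 to 20.4 against 22.0 to 45.0 CPM. Neutrophil markers (8 genes, among them S100a8 and Csf3r) summed to 39987 to 58258 CPM in normoxia and 39537 to 103784 CPM in hyperoxia, so the groups overlapped. The sums of stromal (17.6 to 55.8 against 34.4 to 238 CPM), epithelial (62.1 to 137 against 10.4 to 186 CPM) and red cell markers (58.0 to 728 against 116 to 811 CPM) overlapped too. The part of these cell types in the level of Arntl was not tested.

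Clock (ENSMUSG00000029238, chr5:76209868-76304792, minus strand), the partner of ARNTL, stood at 1.59, 0.931 and 1.11 CPM in normoxia and at 1.57, 1.85 and 1.41 CPM in hyperoxia. The groups overlapped, because normoxia replicate 1 was as high as the hyperoxia libraries. Its log2 difference of 0.41 ± 0.36 (SE) had an interval from -0.40 to 1.23 and an adjusted p of 0.667 in edgeR.

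The Period genes encode the first repressors of the loop, and Per1 is also known as an immediate early gene that responds to glucocorticoids and cyclic AMP. Per1 (ENSMUSG00000020893, chr11:69095217-69109960, plus strand) had 2185 to 3655 counts in a library, the deepest data of any member. It stood at 73.8, 66.2 and 56.1 CPM in normoxia and at 92.5, 47.0 and 50.7 CPM in hyperoxia. Hyperoxia replicate 1 was the highest of all libraries and the 2 others were the lowest. The log2 difference was -0.05 ± 0.29 (SE; 95% interval -0.71 to 0.61; adjusted p of 0.965 in edgeR). Its sign changed with the library left out or the scaling.

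Per2 (ENSMUSG00000055866, chr1:91415982-91459324, minus strand) stood at 3.04, 2.39 and 2.29 CPM in normoxia and at 3.59, 5.18 and 2.82 CPM in hyperoxia. Hyperoxia replicate 3 lay below normoxia replicate 1, so the groups overlapped; with library totals in place of TMM they did not, at 2.30 to 2.90 against 2.99 to 5.36 CPM. The log2 difference was 0.59 ± 0.32 (SE; 95% interval -0.14 to 1.31), with an adjusted p of 0.470 in edgeR. Per3 (ENSMUSG00000028957, chr4:151003652-151044665, minus strand), the Period gene that the core loop depends on least, stood at 1.29, 1.26 and 0.771 CPM against 1.164, 0.517 and 0.694 CPM. Its groups overlapped, and its log2 difference was -0.49 ± 0.45 (SE; adjusted p of 0.691 in edgeR).

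Hyperoxia replicate 2 thus held the highest Per2 and the lowest Per1 and Per3 of the 6 libraries. Over all genes this library also differed most from the others. The chi-square per degree of freedom between the counts of 2 libraries was 473 to 726 in pairs with it. In pairs without it the value was 29.8 to 221. The part of this wider difference in the Period genes was not tested. The ratio of Per1 to Per2 counts was 24.3, 27.6 and 24.6 in the normoxia libraries and 25.7, 9.07 and 18.0 in the hyperoxia libraries. The ratio of Per1 to Per2 was nearly constant in normoxia, and hyperoxia replicate 1 fell among those values.

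The Cryptochromes are the stronger repressors of the ARNTL and CLOCK pair. Cry1 (ENSMUSG00000020038, chr10:85131700-85185064, minus strand) was the steadiest member, with a highest library 1.44 times its lowest. It stood at 25.6, 21.5 and 21.1 CPM in normoxia and at 17.8, 19.4 and 20.8 CPM in hyperoxia. Every hyperoxia library lay below every normoxia library, by a margin of 20.8 against 21.1 CPM at the closest; with upper quartile factors or library totals the groups overlapped. The log2 difference was -0.23 ± 0.19 (SE; 95% interval -0.66 to 0.20), with an adjusted p of 0.643 in edgeR. Cry2 (ENSMUSG00000068742, chr2:92403646-92434043, minus strand) stood at 1.498, 1.57 and 0.976 CPM against 0.759, 1.05 and 1.58 CPM, with overlapping groups. Its log2 difference of -0.26 ± 0.41 (SE) had an adjusted p of 0.842 in edgeR.

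The REV-ERB genes had the widest spread among libraries of the same group. Nr1d1 (ENSMUSG00000020889, chr11:98767932-98775333, minus strand), known as one of the genes with the largest daily swings in many tissues, had 9, 51 and 34 counts in normoxia and 14, 98 and 97 in hyperoxia. These were 0.211, 1.13 and 0.873 CPM against 0.354, 1.53 and 2.04 CPM, a 9.69-fold range. Replicate 1 of either group was low and the 4 other libraries were higher. Replicate numbers follow accession order and do not link a library of one group to a library of the other. The counting interval of normoxia replicate 1, 0.0963 to 0.400 CPM, did not reach that of normoxia replicate 2, 0.842 to 1.49 CPM, and the interval of hyperoxia replicate 1, 0.194 to 0.594 CPM, did not reach that of hyperoxia replicate 2, 1.25 to 1.87 CPM (95% exact Poisson). Libraries of 1 group therefore differed beyond counting error. The log2 difference between groups was 0.83 ± 0.74 (SE; 95% interval -0.85 to 2.52), with an adjusted p of 0.680 in edgeR.

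Nr1d1 shares 263 exon bases, 8.5% of its total, with Thra on the opposite strand. Thra, a thyroid hormone receptor gene, had 40 to 122 counts in a library, and without a stated strand setting the reads of the shared stretch cannot be told apart. Nr1d2 (ENSMUSG00000021775, chr14:18204054-18239127, minus strand) had 11, 9 and 1 counts in normoxia and 3, 20 and 17 in hyperoxia. At this depth a library's level is known only within wide limits, for example 0.00065 to 0.143 CPM for normoxia replicate 3. The log2 difference of 0.63 ± 0.83 (SE) ran from -1.28 to 2.53 in its 95% interval, with an adjusted p of 0.800 in edgeR.

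Dbp (ENSMUSG00000059824, chr7:45705088-45710203, plus strand), the output transcription factor, was even in normoxia and uneven in hyperoxia. It stood at 1.87, 2.04 and 2.16 CPM in normoxia and at 1.34, 1.06 and 2.86 CPM in hyperoxia. The hyperoxia libraries lay on both sides of the normoxia libraries, with replicates 1 and 2 below and replicate 3 above. The log2 difference was -0.21 ± 0.42 (SE; 95% interval -1.16 to 0.75), with an adjusted p of 0.881 in edgeR. Dbp shares 539 exon bases, 18.0% of its total, with the sphingosine kinase gene Sphk2 on the opposite strand, which had 2315 to 3483 counts in a library where Dbp had 53 to 136. Sphk2 stood at 64.4, 61.9 and 59.5 CPM in normoxia and at 60.8, 54.5 and 49.1 CPM in hyperoxia. Without a stated strand setting, reads of the stretch that Dbp shares with Sphk2 cannot be told apart, and their part in the level of Dbp was not tested.

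**Figure D3:**
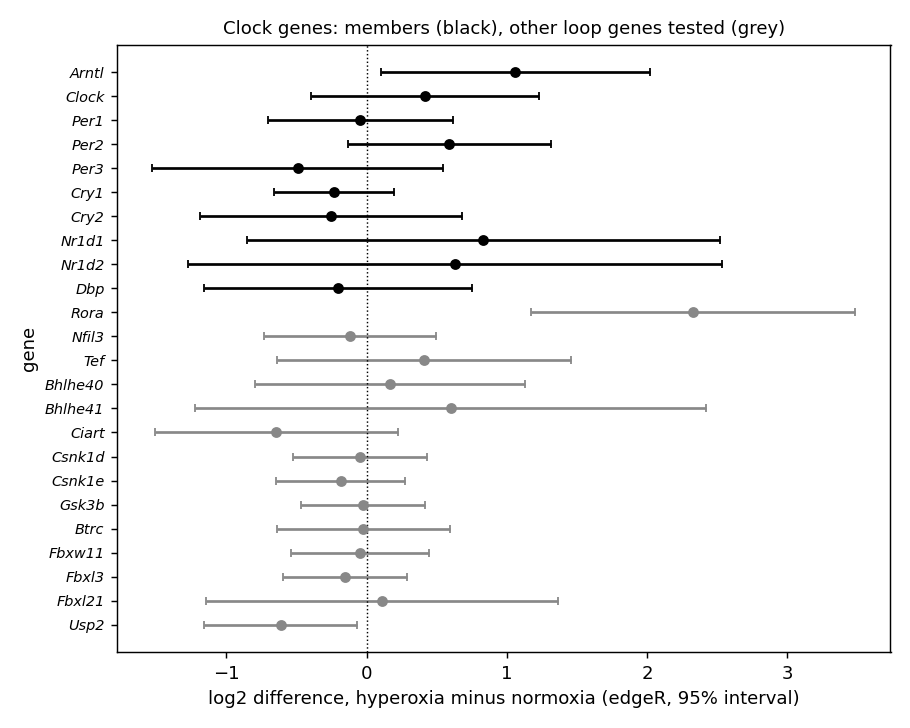
Log2 difference, hyperoxia minus normoxia, with its 95% interval from edgeR for the 10 core clock genes (black) and the 14 other clock genes tested (grey). Among core genes the interval of Arntl, 0.10 to 2.02, is the one that does not include 0, and among the others those of Rora and Usp2.

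Ratios within a library do not depend on scaling between libraries, so they were used to set the repressors and Dbp against Arntl. Counts of Dbp were 3.81, 4.00 and 2.55 times those of Arntl in normoxia and 1.02, 0.680 and 2.96 times in hyperoxia, which overlapped. Per3 counts were 2.62, 2.48 and 0.909 times those of Arntl in normoxia and 0.885, 0.330 and 0.717 times in hyperoxia, so every hyperoxia ratio lay below every normoxia ratio, the nearest by a narrow margin. Nr1d1 counts ran from 0.429 to 2.22 times those of Arntl in normoxia and from 0.269 to 2.11 times in hyperoxia. The Nr1d1 ratio was lowest in replicate 1 of both groups, and its spread within a group (SD of 1.19 and 1.501 on the log2 scale, n = 3 each) exceeded the difference of the group means, -0.01 in normoxia and -0.28 in hyperoxia. These ratios share their denominator and rest on 21 to 100 counts of Arntl, which was itself higher in every hyperoxia library. Per3 alone had overlapping groups, so the split of its ratio is not independent of that of Arntl.

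**Figure D4:**
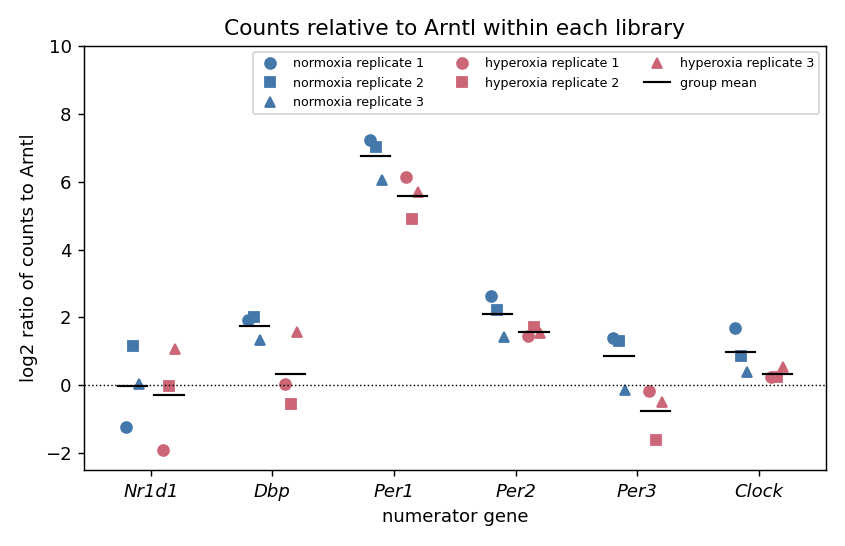
Log2 ratio of the counts of 6 core clock genes to those of Arntl within each library, in normoxia (blue) and hyperoxia (red), with symbols for replicates and bars for group means. The ratio of Nr1d1 spreads over both sides of 0 in both groups, and all 6 ratios, which share Arntl as denominator, have lower means in hyperoxia, from -0.01 to -0.28 for Nr1d1 and from 6.77 to 5.58 for Per1.

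Across the 6 libraries the members did not rise and fall as 1 block. The highest Pearson r of log2 CPM was that of Clock with Per2 (0.87), followed by Per1 with Per3 (0.86). The lowest were those of Per2 with Dbp and of Arntl with Cry1 (both -0.83), and Per1 with Nr1d1 stood at -0.82. Among 5168 other named genes whose mean log2 CPM was 3 or more, those most like Arntl were Fdps (r = 0.96), an enzyme of isoprenoid synthesis, Pabpc1 (0.94), a poly(A)-binding protein, and Rab5c (0.93), an endosomal GTPase. Those most like Dbp were Icam1 (0.99), an adhesion molecule, Ergic1 (0.99) and Zfp703 (0.98). These are descriptions over 6 libraries that share the split into groups, and 11 and 108 genes had an r over 0.9 with Arntl and Dbp.

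Other genes of the clock were taken from a list of 19, of which 14 passed the filter on low counts. In edgeR 0 of the 14 passed an adjusted p of 0.05, and at an unadjusted p under 0.05 there was 1 higher, Rora, and 1 lower, Usp2, which is near the background of 9.10% higher and 3.91% lower. Their median log2 difference was -0.04, with 5 above and 9 below 0. DESeq2 called 1, Rora, against a background of 3.57% higher. Rora, a nuclear receptor that activates Arntl, had 6, 6 and 10 counts in normoxia and 29, 53 and 53 in hyperoxia. These were 0.140, 0.133 and 0.257 CPM against 0.734, 0.830 and 1.12 CPM, and the groups did not overlap under any of the 4 scalings. The log2 difference was 2.33 ± 0.51 (SE; 95% interval 1.17 to 3.49), and the adjusted p was 0.140 by edgeR but 0.00791 by DESeq2. Rora is also expressed in lymphoid cells, and the 6 T and NK cell markers, all with counts in every library, summed to 2.78 to 9.50 CPM in normoxia and 4.53 to 19.8 CPM in hyperoxia; the part of these cells, or of the macrophage and vessel cells whose sums are given with Arntl, was not tested.

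Usp2, a deubiquitinase known to act on clock proteins, stood at 53.1, 66.5 and 52.6 CPM in normoxia and at 33.6, 30.2 and 48.8 CPM in hyperoxia. The groups did not overlap under TMM scaling but did with library totals. The log2 difference was -0.61 ± 0.24 (SE), with an unadjusted p of 0.0318 in edgeR and adjusted p of 0.341 by edgeR and 0.257 by DESeq2. When single libraries were left out, the unadjusted p in edgeR was under 0.05 only without hyperoxia replicate 3 (0.00499). It otherwise ran from 0.0678 without normoxia replicate 1 to 0.126 without normoxia replicate 2. With upper quartile factors it was 0.0507 in edgeR. Among the genes below the filter were Arntl2, Npas2, Rorb and Hlf, each with at most 23 counts in a library. Arntl2 and Npas2, the paralogs of Arntl and Clock, had 6 to 16 and 0 to 23 counts, and their mean levels of 0.0397 and 0.0338 RPKM lay below those of Arntl and Clock.

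Nfil3 and Bhlhe40, repressors outside the core set, were abundant, and Ciart and Bhlhe41 stood above 77.8% and 8.04% of genes tested. Nfil3, which binds the same D-boxes as DBP and represses them, averaged 607 ± 128 RPKM (SD, n = 6), above 99.1% of genes tested and 961 times the mean of Dbp. Bhlhe40 (DEC1), a repressor that binds E-boxes and is also induced by hypoxia, averaged 148 ± 56.4 RPKM (SD, n = 6), above 97.3% of genes tested, and its paralog Bhlhe41 averaged 0.0896 RPKM. Nfil3 differed by -0.12 ± 0.27 and Bhlhe40 by 0.17 ± 0.42 between the groups (log2, SE), with adjusted p of 0.893 and 0.904 in edgeR. Bhlhe40 stood at 611, 714 and 641 CPM in normoxia and at 820, 289 and 1097 CPM in hyperoxia, where replicate 2 was the lowest library and replicate 3 the highest. Ciart, another E-box repressor, stood at 15.1, 21.2 and 20.7 CPM in normoxia and at 15.5, 5.50 and 15.6 CPM in hyperoxia, with the lowest value again in hyperoxia replicate 2 (log2 difference -0.65 ± 0.38, SE; adjusted p of 0.510 in edgeR). The kinase genes Csnk1d and Csnk1e, whose products mark PER proteins for decay, averaged 16.5 and 17.4 RPKM, above every core clock gene in their means.

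Clock outputs, the glucocorticoid receptor with genes it induces, and genes of neutrophil ageing were described with 3 further lists. These lists were chosen with earlier results of these data known, so their counts beside the background describe them and are not a test. Of 8 genes known as clock outputs or REV-ERB targets, 0 passed an adjusted p of 0.05 in edgeR; 7 of the 8 lay above 0, where 6932 of all 12908 genes did. Before adjustment 3 had p under 0.05, all higher, against a background of 9.10% higher. DESeq2 called the same 3 genes, Cx3cr1, Ccl2 and Il6, against a background of 3.57% higher. Cx3cr1, the fractalkine receptor, stood at 3.86, 2.99 and 2.21 CPM in normoxia and at 7.82, 14.2 and 16.2 CPM in hyperoxia. Ccl2, a monocyte chemoattractant, stood at 59.8, 55.2 and 67.3 CPM against 125, 331 and 128 CPM, and the groups of neither gene overlapped. Il6, an inflammatory cytokine, had 10, 14 and 12 counts in normoxia and 11, 78 and 160 in hyperoxia, where replicate 1 was as low as normoxia; without hyperoxia replicate 3 its log2 difference was 1.41 with an unadjusted p of 0.0779 in edgeR. Cx3cr1 is also among the macrophage markers summed beside Arntl. Their log2 differences were 2.08 ± 0.34 for Cx3cr1, 1.68 ± 0.39 for Ccl2 and 2.51 ± 0.80 for Il6 (SE), with adjusted p of 0.101, 0.150 and 0.262 in edgeR and of 5.74e-06, 0.00164 and 0.0328 in DESeq2. The median of the 8 genes was 0.75.

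Glucocorticoids set the phase of peripheral clocks and induce Per1, so their receptor and 8 induced genes were listed as well. In edgeR 0 of 9 passed an adjusted p of 0.05, before adjustment 2 had p under 0.05, both higher, against a background of 9.10% higher and 3.91% lower, and the median log2 difference was 0.04. Sgk1, a kinase, stood at 82.1, 81.4 and 94.7 CPM in normoxia and at 154, 133 and 248 CPM in hyperoxia (log2 difference 1.05 ± 0.27, SE; adjusted p of 0.176 in edgeR and 0.0125 in DESeq2). Fkbp5, a chaperone of the receptor, stood at 10.0, 8.43 and 8.43 CPM against 13.5, 19.7 and 15.2 CPM (0.85 ± 0.22, SE; adjusted p of 0.179 in edgeR and 0.0390 in DESeq2). These were the 2 of the 9 genes whose groups did not overlap, both higher, against 9.56% of all genes higher and 10.3% lower. DESeq2 called the same 2, against a background of 3.57% higher. Of the 9 genes, 5 lay above 0 and 4 below, and the groups of Per1 overlapped. Sums of macrophage, of dendritic cell and MHC class II, and of endothelial markers, given with Arntl, were also higher in every hyperoxia library. The median log2 differences of these markers were 1.59, 1.45 and 3.33. The part of such cells in Sgk1, Fkbp5, Cx3cr1, Ccl2 and Il6 was not tested. Of the genes of neutrophil ageing, Cxcr2 and Cxcl2 differed by -0.07 and 0.18 (log2), with adjusted p of 0.935 and 0.880 in edgeR. Cxcr4, which rises as neutrophils age, stood at 261, 333 and 253 CPM in normoxia and 180, 87.3 and 259 CPM in hyperoxia (log2 difference -0.68 ± 0.37, SE; adjusted p of 0.466 in edgeR).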

How the data were processed

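The deposited files hold raw counts per Ensembl gene, 1 file per library, with no normalization. Alignment with STAR 2.4.2a to GRCm38 and DESeq2 1.16.1 are named in the submitters' processing notes; which program counted reads, whether by strand, and with which annotation is not given in the sources used here. Libraries held 38683293 to 61715617 counts and 17437 to 18984 genes with a count; 3 counts correspond to 0.0486 to 0.0776 CPM. All pairs of libraries differed beyond sampling noise (chi-square per degree of freedom 29.8 to 726). Symbols, GRCm38 coordinates and exon lengths came from GENCODE M21, which matched 42548 of 43432 IDs.

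Genes were filtered with filterByExpr (12908 tested), scaled by TMM and tested two-sided with edgeR 4.0.16 (robust quasi-likelihood) in R 4.3.3, adjusting p-values by Benjamini-Hochberg across the 12908 genes; SE came from the F statistic. RPKM used the union of annotated exons. Alternatives were DESeq2 1.42.0, limma-voom 3.58.1 with and without quality weights, other scalings, filters and thresholds, and omitting 1 library at a time. Scripts were first tested on simulated data. Replicate numbers follow accession order.

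All members are named; genes of the other lists are named where their unadjusted p was under 0.05 or, where none was, with the lowest p, and the 3 genes of highest Pearson r with Arntl and with Dbp. Nfil3, Bhlhe40, Bhlhe41, Ciart, Csnk1d, Csnk1e, Arntl2 and Npas2 were named after their values were seen. Cxcr2, Cxcl2, Rorb, Hlf and some cell type markers were also named outside the rule on p-values. Members and lists were chosen with earlier results of these data known. Some items are not reported here.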

Additional observations from a re-analysis of the deposited data

How the results depend on the processing

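No core clock gene passed an adjusted p of 0.05 in any of the 15 alternatives (count 0 in each), and 8 of the 10 kept the sign of their log2 difference in all of them. Per1 changed sign with upper quartile factors (0.0032) and ran from -0.39 to 0.15 when single libraries were left out. Dbp ran from -0.75 to 0.074 when single libraries were left out, the latter without hyperoxia replicate 2. Arntl kept a positive difference of 0.91 to 1.42, with adjusted p of 0.264 to 0.813. When single libraries were left out the size also moved for Per2 (0.33 to 0.79), Per3 (-0.84 to -0.24), Clock (0.25 to 0.72), Cry1 (-0.29 to -0.077), Cry2 (-0.57 to -0.014), Nr1d1 (0.37 to 1.30) and Nr1d2 (0.19 to 1.17), and among other genes for Ciart (-0.86 to -0.27), Cxcr4 (-1.08 to -0.34), Il6 (1.41 to 3.02) and Ccl2 (1.07 to 1.96). Nfil3 ran from -0.35 to 0.083 and Bhlhe40 from -0.24 to 0.57 when single libraries were left out, and Bhlhe40 stood at -0.024 in limma-voom. Of the other clock genes, DESeq2 called 1, Rora, and every other alternative 0. Over all genes edgeR called 0, DESeq2 513, limma-voom 0, limma-voom with quality weights 36, no filter 214, and an adjusted p under 0.1 gave 30; leaving out single libraries gave 0 to 176, the latter without hyperoxia replicate 1. The causes were not tested. Of the members, 8 had at most 331 counts in a library, which limits what differences could be detected. The labels give no replicate numbers and no pairs of libraries, so no paired analysis was run.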
